A study of Macaca mulatta with 24 samples.

Results

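Transcript levels in the dorsal premotor cortex (PMd) of rhesus monkeys (Macaca mulatta) were set against those in the ventral premotor cortex (PMv). The comparison rests on the 12 arrays whose titles name either area, 6 from PMd and 6 from PMv, of 24 arrays in the series. PMd tissue was cut from the posterior bank of the upper arcuate limb with the adjoining convexity in front of M1, and PMv tissue from the matching bank and convexity at the lower limb. Every group came from both hemispheres of the same 3 group-caged animals without experimental treatment, 2 males (animals 1 and 2) and 1 female (animal 3), aged 2.6 to 2.7 years. The other 12 arrays, 6 from the forelimb part of the primary motor area (M1) and 6 from both banks of the principal sulcus (prefrontal area 46, A46), served to estimate the spread and to place the premotor areas among the others. All animals received a pentobarbital overdose and were perfused with ice-cold heparinised saline before the pieces were cut on ice. The borders followed sulcal landmarks, and a dissected piece mixes neurons, glia and vessels. Levels are log2 of the array intensity. The 2 hemispheres were averaged per animal, and differences are PMd minus PMv over 3 animals, so that a positive value means higher in PMd and a value of 1 is 2-fold.

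Both areas lie in front of M1, and both send axons to it and to the spinal cord. PMd is known for reaching and for arm movements chosen by a rule, and PMv for grasping and for hand and face movements. Immediate early genes such as FOS are transcribed within minutes of strong neuronal activity, and many encode transcription factors that act on later genes. Heavy neurofilament, parvalbumin and fast sodium and potassium channels belong to neurons with thick axons or brief spikes, which are prominent in motor cortex. The question of the comparison was which transcripts differ between neighbouring premotor fields that serve different movements.

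The tissue carried the transcripts of neocortical neurons. Of 12 listed neuron markers 8 were bright enough to be tested, and the dimmest of them, the enolase ENO2, averaged 7.29 over all arrays. Their summed intensity was 23663 to 26376 in PMd arrays and 20608 to 24686 in PMv arrays. A pair of PMv arrays, the left hemispheres of animals 1 and 2, stood apart from the rest. Their log2 values correlated at a mean of 0.967 and 0.975 with the other arrays, against 0.979 to 0.985 for the other 22 arrays, and the SD of their log2 values was 1.79 and 1.83 against 1.87 to 1.95. The counts over all probe sets, the genes that passed and several gene lists are therefore also given without this pair. Most other single genes are given with it only. For actin, the 3′ signal exceeded the 5′ signal, a gap that widens as RNA breaks down, by a log2 value of 0.771 to 1.16 in PMd and 0.877 to 1.32 in PMv. The gap was smaller in PMd in 5 of 6 same-animal, same-hemisphere pairs. For GAPDH it was 0.747 to 1.17 in PMd and 0.810 to 1.01 in PMv, smaller in PMd in 3 of 6 pairs. No 2 arrays held the same values throughout.

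**Figure D1:**
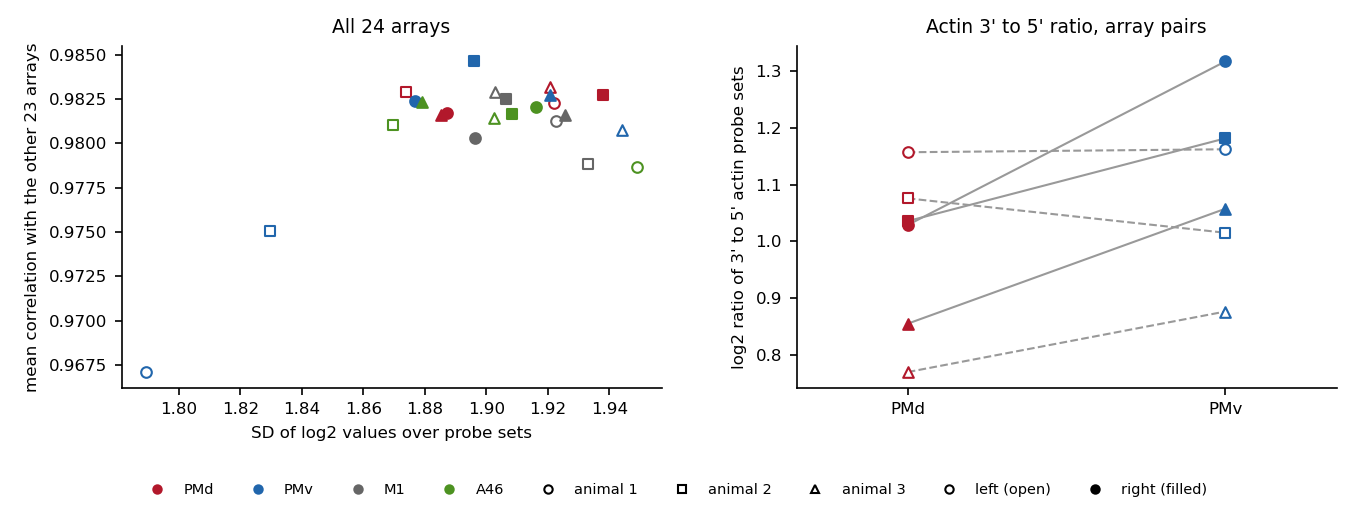
Left, mean correlation of each of the 24 arrays with the other arrays against the SD of its log2 values. The left PMv arrays of animals 1 and 2 lie at 0.967 and 0.975, and all others at 0.979 or above. Right, log2 of the 3′ over the 5′ actin signal in same-animal, same-hemisphere pairs of PMd and PMv arrays, with PMd the lower value in 5 of 6 pairs.

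PMd and PMv were close to each other. Limma called 2 of 26383 tested probe sets at an adjusted p below 0.05 (0.00758%), DIAPH3 and FOS, both higher in PMd. None was called lower in PMd (0%), although 269 probe sets had a negative difference with an unadjusted p below 0.05. At that unadjusted level 1425 probe sets differed (5.4%), 1156 of them higher (4.38%) and 269 lower (1.02%) in PMd, so 81.1% were higher. Without the pair of PMv arrays that stood apart, 1070 differed (4.06%), 586 higher (2.22%) and 484 lower (1.83%), which is 54.8% higher, and the same 2 genes were called. After a second quantile normalization of all arrays the split was 828 higher and 588 lower (58.5%), only DIAPH3 was called, and the median difference over tested probe sets was -0.00057, beside 0.029 in the deposited values. The calls also depended on the animals: limma called 1 probe set without animal 1 and 0 without animal 2 (253 with an unadjusted p below 0.05), but 1398 without animal 3. The largest differences were under 2-fold, and 0 probe sets differed by 2-fold or more.

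DIAPH3, a formin that builds unbranched actin filaments at the cell cortex and in protrusions, had the largest difference of any named gene. Its level was 6.74, 7.39 and 7.66 (lowest, median and highest array) in PMd and 5.79, 6.47 and 6.81 in PMv. The PMd array was the higher in 6 of 6 pairs. The groups overlapped, with animal 2 the lowest in both areas, at 6.74 and 6.86 in PMd against 5.79 and 6.05 in PMv. DIAPH3 averaged 7.27 ± 0.43 in PMd and 6.39 ± 0.40 in PMv (SD, n = 3 animals), a log2 difference of 0.89 (SE 0.10, 95% interval 0.68 to 1.09, adjusted p = 0.0119) or 1.85-fold. The 3 animals differed by 0.78, 0.88 and 1.01. Without the pair of PMv arrays the difference was 0.88 (adjusted p = 0.0023), and without animal 2 it was 0.89 but no longer passed (adjusted p = 0.508). In a bulk sample, fewer cells of a type and less RNA per cell cannot be told apart.

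DIAPH3 was higher in PMd than in either area outside premotor cortex as well. It averaged 6.33 ± 0.39 in M1 and 6.03 ± 0.26 in A46, so PMd lay above the other 3 areas. PMd exceeded M1 by 0.95 (adjusted p = 0.0019) and A46 by 1.25 (adjusted p = 3.67e-05). PMv differed from M1 by 0.060 (adjusted p = 0.811) and from A46 by 0.36 (adjusted p = 0.0851). These comparisons share the PMd or PMv arrays with the first one. Of 3 probe sets naming DIAPH3, only this one was bright enough to be tested. The other 2, with means of 4.26 and 3.60, differed by 0.0072 and 0.17, so the gene's difference rests on 1 probe set.

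FOS, the activity-induced partner of JUN in the AP-1 transcription factor, was the other gene that rose in PMd. Its level was 7.64, 7.71 and 8.17 in PMd and 6.42, 7.09 and 7.38 in PMv, and all 6 PMd arrays lay above all 6 PMv arrays. It averaged 7.84 ± 0.29 in PMd and 7.04 ± 0.30 in PMv (SD, n = 3 animals), a difference of 0.80 (SE 0.10, 95% interval 0.58 to 1.02, adjusted p = 0.0307) or 1.74-fold. The 3 animals differed by 0.92, 0.80 and 0.68. The lowest value, 6.42, was the left PMv array of animal 1. Without that array and its fellow the difference was 0.68 (adjusted p = 0.0107). FOS did not pass without animal 1 (0.74, adjusted p = 0.205) or without animal 2 (0.80, adjusted p = 0.949).

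FOS was higher in PMd than in M1 and lower in PMv than in A46. The mean was 7.29 in M1 and 7.76 in A46. PMd exceeded M1 by 0.55 (adjusted p = 0.0406) and A46 by 0.080 (adjusted p = 0.778). PMv differed from M1 by -0.25 (adjusted p = 0.256) and fell below A46 by a log2 difference of -0.72 (adjusted p = 0.0060). FOS had its highest mean in PMd and its lowest in PMv of the 4 areas. As for DIAPH3, these comparisons share the PMd or PMv arrays with the first one.

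**Figure D2:**
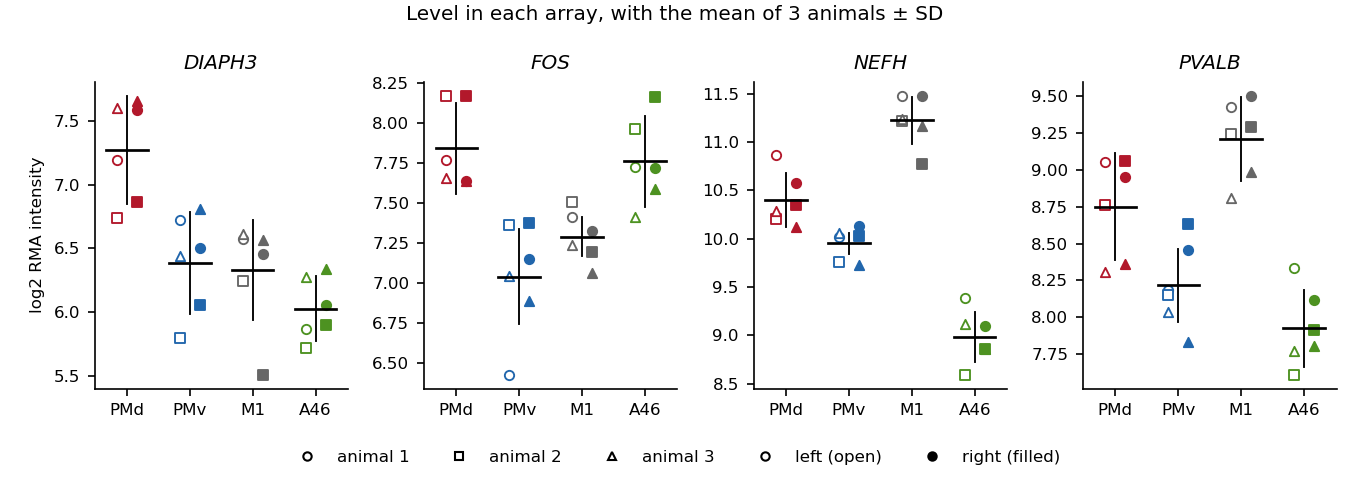
Log2 intensity of DIAPH3, FOS, NEFH and PVALB in each of 24 arrays (points: shape for animal, open for left, filled for right) with the mean of 3 animals ± SD (lines). DIAPH3 stands alone in PMd, FOS is high in PMd and A46, and NEFH and PVALB are highest in M1 with PMd next.

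The other immediate early genes leaned the same way as FOS without passing the test. Of 26 listed, 18 were tested, 17 had a positive difference (94.4%, beside 67.6% of all genes) and 1 passed (FOS). An unadjusted p below 0.05 with a higher PMd level was reached by 13 of 18, against 5.25% of the 10043 tested genes, and by 0 with a lower one, against 0.707%. The PMd array was the higher in all 6 pairs for 11 of them, against 4.27% of genes (3.33% of probe sets). The list's median difference was 0.33, beside 0.036 for all genes. The list was drawn up with earlier results of these arrays known, so its direction is a description. Their summed intensity was 6551 to 8703 in PMd arrays and 4792 to 6439 in PMv arrays, which do not overlap, and it was 5972 to 6399 in M1 and 7097 to 8177 in A46.

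FOS and the transcription factors NPAS4 and EGR2 had the largest differences in the list. NPAS4, a neuron-specific factor induced by calcium entry, had 6.84, 7.02 and 7.67 in PMd and 6.01, 6.53 and 6.62 in PMv, with no overlap between the groups. Its difference was 0.73 (SE 0.13, adjusted p = 0.280). EGR2, a zinc finger factor of the early growth response family, had 7.23, 7.49 and 7.94 in PMd and 6.44, 6.94 and 7.29 in PMv. The groups overlapped by the right PMv array of animal 3, and the difference was 0.66 (SE 0.11, adjusted p = 0.257), but a second, dimmer EGR2 probe set differed by 0.083. EGR4, of the same family, differed by 0.42 (SE 0.09, adjusted p = 0.322), and the orphan nuclear receptor NR4A1 by 0.45 (SE 0.08, adjusted p = 0.280), or by 0.71 in its second probe set. Each of these was higher in PMd in 6 of 6 pairs. JUNB (0.35), FOSL2 (0.22) and JUND (0.14), which are AP-1 partners, were also higher in 6 of 6 pairs (adjusted p = 0.774, 0.854 and 0.854).

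The list also holds early genes of other kinds. DUSP1, a phosphatase that switches off MAP kinases, had 9.36, 9.40 and 10.004 in PMd and 8.74, 9.09 and 9.28 in PMv. No array overlapped, and the difference was 0.50 (SE 0.08, adjusted p = 0.257), or 0.25 in a dimmer second probe set. ARC, whose RNA travels to active synapses and whose protein removes glutamate receptors, had 9.69, 9.85 and 10.51 in PMd and 9.22, 9.52 and 9.88 in PMv. Animal 2 was high in both areas, so the groups overlapped although all 6 pairs ran the same way (difference 0.48, SE 0.08, adjusted p = 0.257). IER2, an early nuclear protein, had 8.62, 8.78 and 8.97 in PMd and 8.03, 8.40 and 8.56 in PMv, again without overlap (0.44, SE 0.08, adjusted p = 0.257). The neurotrophin BDNF (0.31), the synaptic scaffold HOMER1 (0.19) and the circadian factor PER1 (0.16) were higher in 5 of 6 pairs (adjusted p = 0.854 each).

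Not every member shared the pattern. NR4A2, a nuclear receptor that also marks deep-layer and claustral neurons, had a difference of -0.0066 (adjusted p = 0.993) and was higher in PMd in 3 of 6 pairs. ATF3, induced by cell stress and injury, differed by 0.047 (adjusted p = 0.928), and IER5 by 0.11 (adjusted p = 0.855). The animals also differed: the list's median was 0.39 in animal 1, 0.42 in animal 2 and 0.24 in animal 3, and 18, 18 and 14 of 18 members were positive in them. For all genes the medians were 0.085, 0.041 and -0.0086, and 67.3%, 62.2% and 47.2% were positive. For EGR2 the difference was 0.80, 0.94 and 0.23 in the 3 animals.

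Across the 4 areas PMv was the low end for these genes more often than PMd was the high end. Of the 18, 11 had their lowest mean in PMv, 6 their highest in PMd and 11 their highest in A46. PMd lay above M1 in 17 and below A46 in 12. These orders were not counted over all genes. Of all 10043 genes, 67.6% were higher in PMd than in PMv. The PMv mean lay between those of M1 and A46 in 4442 of them, and the PMd mean in 5704. A PMv mean outside that range was thus common among genes in general. IER2 fell in PMv relative to A46 by a log2 difference of -0.54 (adjusted p = 0.0060), EGR2 by -0.91 (adjusted p = 0.0038), NR4A1 by -0.58 (adjusted p = 0.0062) and DUSP1 by -0.40 (adjusted p = 0.0373). Relative to A46, PMd differed in the same genes by -0.10, -0.25, -0.13 and 0.096, and none of these passed (adjusted p = 0.586, 0.316, 0.50 and 0.648). These genes were named for a small p with PMv below PMd, and the comparisons with A46 reuse those arrays. That choice favours a low PMv, so the passes are not independent of it. Of all 26383 tested probe sets, 158 passed with a lower level in PMv than in A46.

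The immediate early genes were also set beside measures of the arrays. Without the left PMv arrays of animals 1 and 2 the list's median was 0.25, beside 0.013 for all genes, and 12 of 18 members had an unadjusted p below 0.05 with a higher PMd level, against 2.48% of genes. The actin 3′ to 5′ gap, given above, was smaller in PMd in 5 of 6 pairs. With that gap as a covariate FOS differed by 0.67 (adjusted p = 1.00) and DIAPH3 by 0.86 (adjusted p = 0.821), and limma called 0 probe sets, while 429 had an unadjusted p below 0.05. The list's median was then 0.28. An unadjusted p below 0.05 with a higher PMd level was reached by 10 of 18 members, beside 296 of 26383 probe sets.

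**Figure D3:**
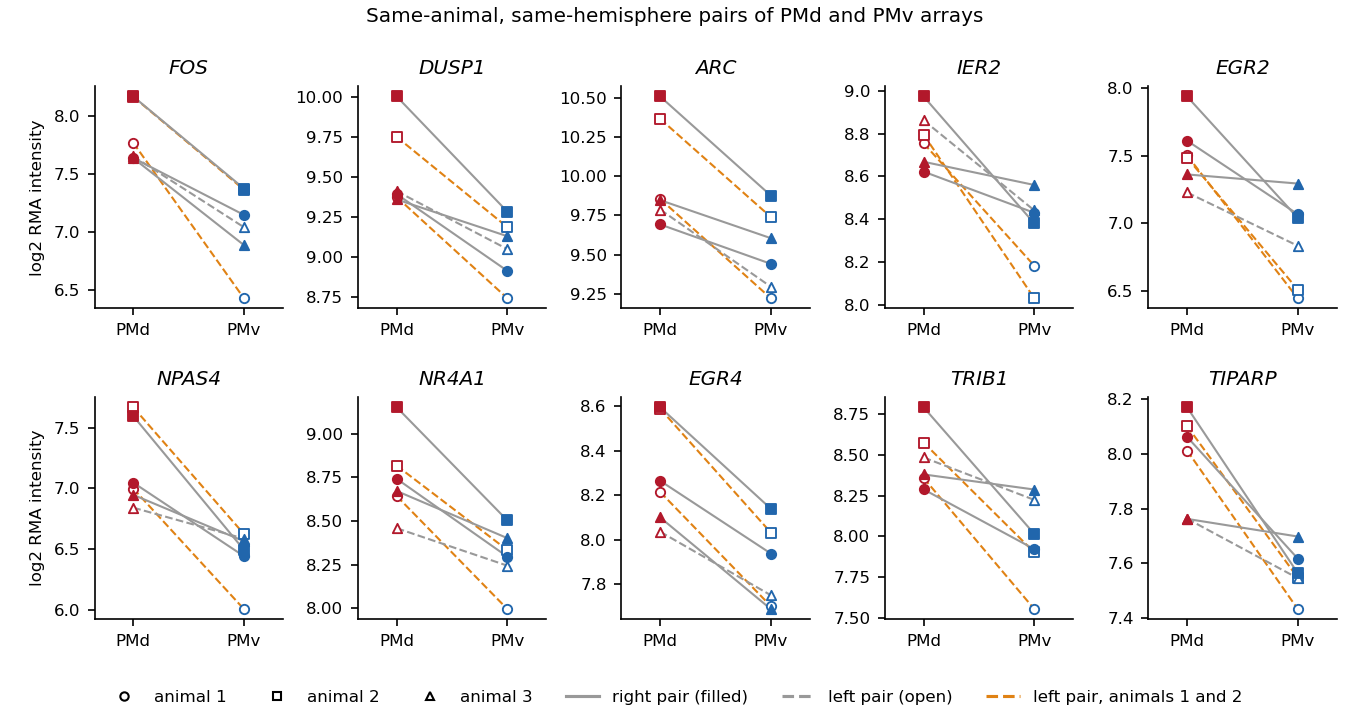
Log2 intensity in same-animal, same-hemisphere pairs of PMd (left) and PMv (right) arrays for 8 immediate early genes and for TRIB1 and TIPARP. The PMd array is the higher in all 6 pairs of each panel, and the orange dashed lines are the left pairs of animals 1 and 2, whose PMv arrays stood apart.

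Of the other named genes with the smallest p and a higher level in PMd, 4 belong to none of the gene lists used here. TRIB1, a pseudokinase that targets proteins for breakdown, had 8.29, 8.43 and 8.79 in PMd and 7.55, 7.97 and 8.29 in PMv. Its arrays met at 8.29 without crossing, and the difference was 0.50 (SE 0.10, adjusted p = 0.297), but a second, dimmer TRIB1 probe set differed by 0.074. TIPARP, an ADP-ribosyltransferase induced by the aryl hydrocarbon receptor, had 7.76, 8.04 and 8.17 in PMd and 7.43, 7.56 and 7.70 in PMv (0.41, SE 0.08, adjusted p = 0.322). OPN3, an opsin expressed in brain, had 8.24, 8.32 and 8.50 in PMd and 7.54, 7.86 and 8.09 in PMv (0.48, SE 0.10, adjusted p = 0.307). CLSPN, a checkpoint adaptor of DNA replication, averaged 9.71 in PMd and 9.33 in PMv (0.39, SE 0.07, adjusted p = 0.297). All PMd arrays lay above all PMv arrays for TRIB1, TIPARP and OPN3, which 24 of 10043 genes did (0.239%; 0.159% of probe sets). None of the 4 passed the test.

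Genes of thick axons and fast firing were also among the named genes higher in PMd. NEFH, the heavy neurofilament of large projection neurons, had 10.12, 10.32 and 10.87 in PMd and 9.72, 10.02 and 10.13 in PMv. It was higher in 6 of 6 pairs, with a difference of 0.45 (SE 0.08, 95% interval 0.28 to 0.62, adjusted p = 0.257). PVALB, the calcium buffer of fast-spiking interneurons, had 8.31, 8.86 and 9.06 in PMd and 7.83, 8.17 and 8.63 in PMv. Here too all 6 pairs ran the same way, and the difference was 0.53 (SE 0.10, 95% interval 0.32 to 0.75, adjusted p = 0.297). RFTN2, a lipid-raft protein gene, averaged 8.37 in PMd and 7.89 in PMv (0.48, SE 0.12, adjusted p = 0.806), and the vesicle protein SV2C had 7.25, 7.41 and 7.78 in PMd and 6.86, 6.99 and 7.09 in PMv (0.46, adjusted p = 0.812), without overlap.

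These genes placed PMd between PMv and M1. NEFH averaged 10.40 in PMd, 9.95 in PMv, 11.22 in M1 and 8.98 in A46. PMd fell below M1 for NEFH by a log2 difference of -0.82 (adjusted p = 0.0019) and PMv by -1.27 (adjusted p = 1.44e-05). PVALB averaged 8.75 in PMd, 8.22 in PMv, 9.21 in M1 and 7.92 in A46. PMd exceeded A46 for PVALB by 0.82 (adjusted p = 0.0020), whereas PMv exceeded it by 0.29 without passing (adjusted p = 0.155). NEFH and PVALB were named for a small p in PMd minus PMv, and the comparisons with M1 and A46 reuse those arrays. SPP1, which encodes osteopontin and marks large motor neurons, differed between PMd and PMv by 0.23 (95% interval -0.061 to 0.52, adjusted p = 0.854) and was higher in 5 of 6 pairs.

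The lists of these genes gave few small p-values. Over all genes 67.6% had a positive difference and 5.25% were higher with an unadjusted p below 0.05. Of 6 tested neurofilament and large projection neuron genes 6 had a positive difference and 2 (33.3%) an unadjusted p below 0.05, NEFH and the vesicle protein VAMP1 (0.20), with a list median of 0.15. Of 6 fast-firing ion channel genes 6 were positive and 2 (33.3%) were below 0.05, the sodium channel SCN1A (0.44) and the potassium channel KCNA2 (0.24), with a median of 0.12. SCN1A was 0.23 on the right and 0.65 on the left, and 0.19 without the pair of PMv arrays. Of 17 other potassium channel genes 9 were positive and the median was 0.0051, below the 0.036 of all genes. No member of these 3 lists passed the test.

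Genes that separate motor from prefrontal cortex were then taken as a set. Of 881 genes called higher in M1 than in A46, 716 (81.3%) were higher in PMd than in PMv, beside 67.6% of all genes tested, with a median difference of 0.069 beside 0.036. In right-hemisphere arrays the share was 69.2%, beside 62.9% of all genes, and without the pair of PMv arrays it was 70.1%, beside 57.7%. The 62 genes among them that were at least 2-fold higher in M1 did not show a larger share: 42 (67.7%) were higher in PMd, with a median of 0.037, and 31 (50%) on the right. For all 62 both premotor means lay between those of M1 and A46. Over all 10043 genes the PMd mean did so in 5704 and the PMv mean in 4442. The 62 were chosen for a wide gap between M1 and A46, which by itself favours means in between. Of 592 genes called lower in M1 than in A46, 374 (63.2%) were higher in PMd than in PMv, with a median of 0.029. Their share was 55.1% in right arrays and 45.1% without the pair of PMv arrays. Of 12 tested oligodendrocyte and myelin genes 10 had a positive difference (83.3%, beside 67.6% of all genes) and none had an unadjusted p below 0.05 in either direction, with a median of 0.035. All 12 were positive in animal 1 (median 0.30), against 3 of 12 in animal 2 (-0.039) and 3 of 12 in animal 3 (-0.063), and the median in right arrays was -0.0081. Of all genes 67.3%, 62.2% and 47.2% were positive in animals 1, 2 and 3. MBP, myelin basic protein, differed by -0.076 (95% interval -0.36 to 0.21) and UGT8, which makes a myelin lipid, by 0.11 (-0.33 to 0.55). Their summed intensity was 14480 to 20142 in PMd, 15490 to 20547 in PMv, 21574 to 29706 in M1 and 10536 to 14446 in A46.

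Mitochondrial respiration genes had small positive differences. All 23 tested had a positive difference, beside 67.6% of all genes, and 9 (39.1%) had an unadjusted p below 0.05, beside 5.25%. None passed, and the median was 0.11. SDHA, a subunit of complex II, differed by 0.21 (adjusted p = 0.854), UQCRB of complex III by 0.27 and ATP5MC3 of the ATP synthase by 0.16, each higher in 6 of 6 pairs. Without the left PMv arrays of animals 1 and 2 the median was 0.042 with 3 members below 0.05, beside 2.48% of genes. In right arrays alone it was 0.075 with 1 member, beside 2.79% of genes. Without animal 1 or animal 2 no member was below 0.05, and without animal 3 it was 14. Over the 26383 probe sets, 274, 163 and 5220 were higher at that level without animals 1, 2 and 3 in turn. With the actin 3′ to 5′ gap as a covariate 1 member was below 0.05, without the replicate block 3, and after a second quantile normalization 5. The probe sets higher at that level then numbered 296, 438 and 828. Of heat shock and chaperone genes 16 of 17 (94.1%) were positive and 2 (11.8%) were below 0.05, DNAJA1 (0.20) and HSPA8 (0.18), and the median was 0.11, or 0.055 without the pair. In animal 3, 7 of 17 were positive with a median of -0.012, beside 47.2% and -0.0086 for all genes in that animal. For general neuron markers, all 8 were positive with a median of 0.089, or 0.049 without the pair, and 4 of 8 were positive in animal 3.

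**Figure D4:**
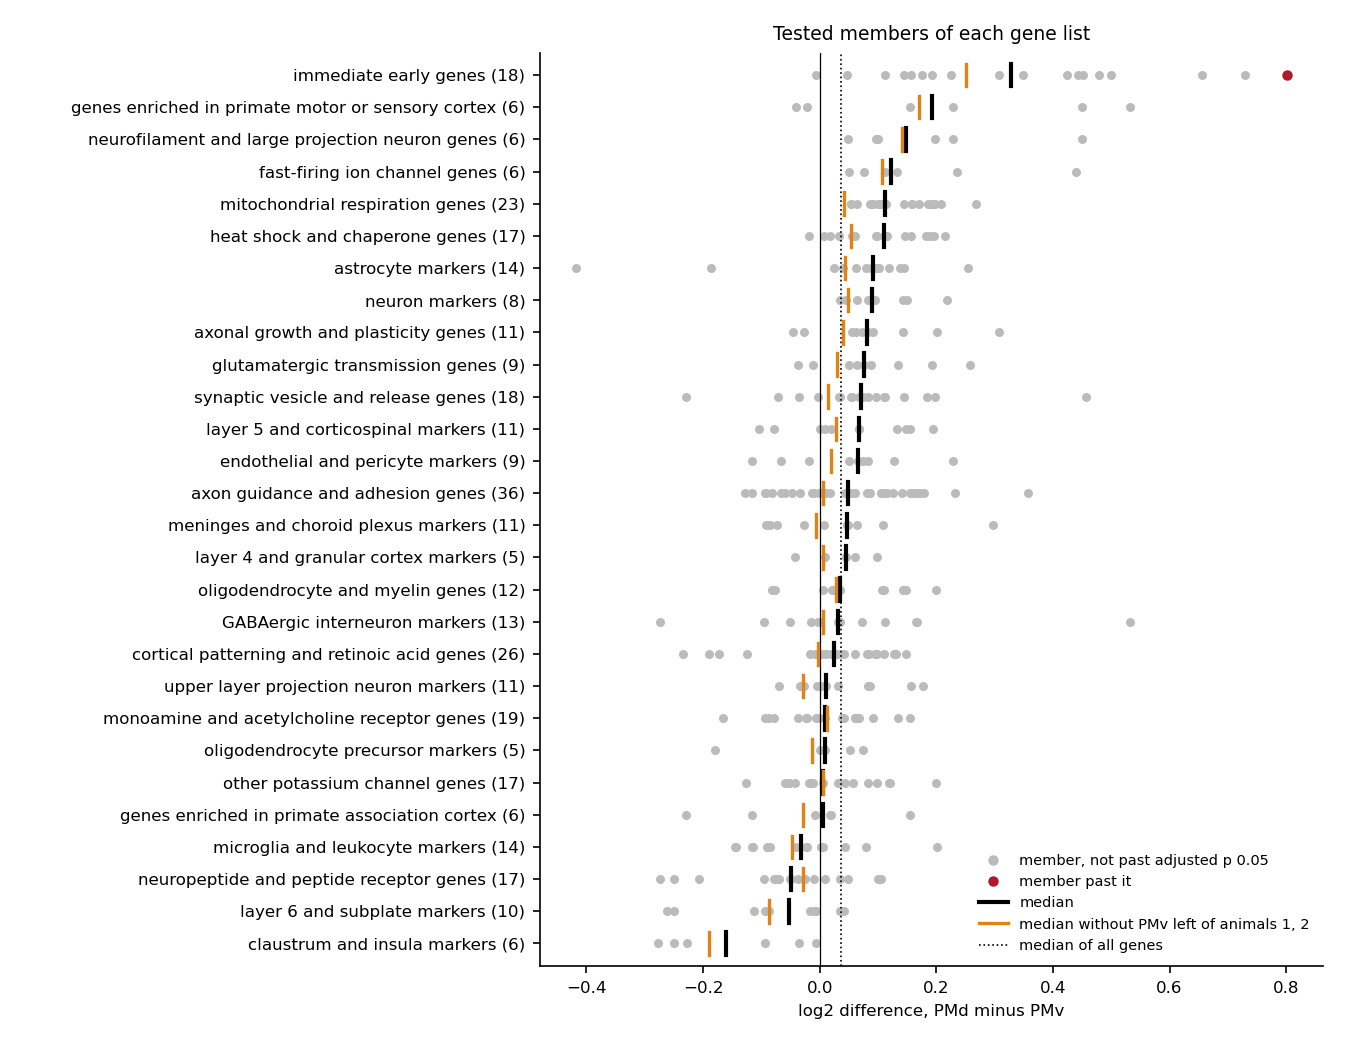
Log2 difference, PMd minus PMv, of the tested members (points) of each gene list with 5 or more of them, with the list's median over all arrays (black) and without the left PMv arrays of animals 1 and 2 (orange). The dotted line is the median of all genes, 0.036. Immediate early genes reach furthest right, and claustrum and insula markers lie at or left of 0.

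No probe set passed with a lower level in PMd. The 15 named genes with the smallest p in this direction differed by -0.18 to -0.39, with adjusted p from 0.620 to 0.854. KLHL1, an actin-binding kelch protein, led with 5.19, 5.50 and 5.83 in PMd and 5.45, 5.89 and 6.36 in PMv (-0.39, SE 0.09, adjusted p = 0.620), and was lower in PMd in 5 of 6 pairs. SORBS2, an adaptor between the cytoskeleton and membrane receptors, had 8.69, 9.08 and 9.23 in PMd and 8.83, 9.36 and 9.56 in PMv (-0.29, SE 0.07, adjusted p = 0.806). It was lower in PMd in 6 of 6 pairs (0.866% of genes), as were FZD7, a Wnt receptor (-0.28), ISLR2 (-0.28), the sodium channel subunit SCN3B (-0.18), the synaptotagmin SYT17 (-0.23), TBL1X (-0.18), SESN3 (-0.27) and OLFML2B (-0.23). For ARGLU1 (-0.27) only 1 of 3 probe sets had this sign. A dimmer SORBS2 probe set had the opposite sign (0.062), while another kept it (-0.25). A dimmer TBL1X probe set was also opposite (0.14), with further ones at -0.060 and -0.037.

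Several of the genes lower in PMd had their lowest mean in M1. PMv exceeded M1 in 7 of the 15: in SYT17 by 0.52 (adjusted p = 0.0064), in SORBS2 by 0.44 (adjusted p = 0.0117), in SOWAHA by 0.40 (adjusted p = 0.0153), in SCN3B by 0.31 (adjusted p = 0.0216), in SIDT1 by 0.39 (adjusted p = 0.0298), in KLHL1 by 0.43 (adjusted p = 0.0341) and in IDNK by 0.34 (adjusted p = 0.0440). In the same 7 genes PMd differed from M1 by 0.034 (KLHL1) to 0.29 (SYT17), and none of these differences passed (adjusted p from 0.129 to 0.999). The 15 were named for a small p with PMv above PMd, and the comparisons with M1 reuse those PMd and PMv arrays. That choice favours a high PMv and a low PMd, so the 7 passes are not independent of it. Of all 26383 tested probe sets, 123 passed with a higher level in PMv than in M1.

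Markers of neighbouring structures leaned toward PMv in one case. All 6 tested claustrum and insula markers had a negative difference, with a median of -0.16. Of all 10043 genes 3257 had a negative difference. Among the 6 markers, the vesicle protein SYNPR (-0.23) and the kappa opioid receptor OPRK1 (-0.25) had an unadjusted p below 0.05, the share of all genes in that direction being 0.707%. OPRK1 was lower in PMd in 6 of 6 pairs, while of 3 SYNPR probe sets only 1 had this sign. Their summed intensity was 2094.5 to 2318 in PMd and 1991 to 2690 in PMv, which overlap, and it was 2493 to 2760 in A46. Without the pair of PMv arrays the median was -0.19, without animal 3 it was -0.070, and with the filter at the 75th percentile -0.065. In animal 1, 3 of the 6 were positive, beside 67.3% of all genes. Layer 6 and subplate markers, which share OPRK1, NR4A2 and NTNG2 with that list, had 8 of 10 negative and a median of -0.052. None of these passed, and their part in other differences was not tested.

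Markers of other cell types had small differences with no call. Of 14 astrocyte markers 12 (85.7%, beside 67.6% of all genes) were positive with a median of 0.092 (0.043 without the pair). However, GFAP, the intermediate filament of fibrous and reactive astrocytes, was the lowest at -0.42 (SE 0.19, adjusted p = 0.854). Its level was 10.50, 10.68 and 10.78 in PMd and 10.87, 11.11 and 11.28 in PMv, without overlap (all PMd arrays lay below all PMv arrays for 3 of 10043 genes, 0.0299%, and 8 probe sets, 0.0303%), although the other of 2 GFAP probe sets had the opposite sign. Medians were -0.033 for 14 microglia and leukocyte markers, 0.067 for 9 endothelial and pericyte markers, 0.046 for 11 meninges and choroid plexus markers, 0.079 for 4 striatal neuron markers and 0.0079 for 3 blood cell genes. Their summed intensities overlapped between PMd and PMv, at 2841 to 3124 in PMd and 2728 to 3219 in PMv for microglia, and at 1637 to 1921 in PMd and 1195 to 2230 in PMv for meninges. No value in the deposited table is 0, so no marker was at 0.

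Other interneuron markers lay on both sides of 0. Of 13 tested GABAergic markers 8 (61.5%) were positive, beside 67.6% of all genes, with a median of 0.032. GAD1, the main GABA-making enzyme, differed by 0.17 (adjusted p = 0.854) and the neuropeptide NPY by -0.27 (adjusted p = 0.854). CRH, a peptide of another interneuron class, differed by -0.051 (95% interval -0.26 to 0.16).

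Most layer and patterning genes fixed by name had differences close to 0. FEZF2, which specifies subcerebral projection neurons, differed by 0.0014 (95% interval -0.19 to 0.19), and CUX2 of upper layers by 0.0091 (-0.19 to 0.21). RORB of layer 4 differed by 0.098 (-0.16 to 0.35) and CRYM of layer 5 by -0.10 (-0.27 to 0.058). Among the patterning factors, LMO3 differed by -0.0053 (-0.12 to 0.11), NR2F1 by 0.011 (-0.16 to 0.19), NR2F2 by 0.085 (-0.073 to 0.24) and LMO4 by 0.082 (-0.032 to 0.20). Each had a second, dimmer tested probe set, which differed by 0.19 for LMO3, -0.068 for NR2F1, -0.022 for NR2F2 and 0.16 for LMO4. The second LMO3 value lies outside the interval of the first. The 26 cortical patterning and retinoic acid genes had a median of 0.025 and 2 (7.69%) below an unadjusted p of 0.05, BHLHE22 (-0.23) and DACH1 (-0.19), both lower in PMd, beside 0.707% of all genes in that direction. Of 11 layer 5 and corticospinal markers 9 (81.8%) were positive, beside 67.6% of all genes, with a median of 0.067. The transcription factor ETV1 (0.19, adjusted p = 0.854) was below an unadjusted 0.05. ETV1 was 0.028 without the pair of PMv arrays.

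Genes known from association cortex or for axon guidance were also close. RBP4, a retinol carrier of association cortex, differed by 0.020 (95% interval -0.16 to 0.20), PNMA5 by -0.0084 (-0.19 to 0.17) and the guidance ligand SLIT1 by -0.12 (-0.36 to 0.13). FREM3 of the extracellular matrix differed by 0.012 (-0.22 to 0.24) and the ephrin receptor EPHA3 by -0.092 (-0.27 to 0.088), although both separated M1 from either premotor area. FREM3 rose over M1 by 0.92 in PMd and 0.91 in PMv (adjusted p = 0.0062 and 0.0018), and EPHA3 by 0.83 and 0.93 (adjusted p = 0.0019 and 0.00047). Of 36 guidance and adhesion genes 24 (66.7%) were positive, beside 67.6% of all genes, with a median of 0.049. SEMA3C, a secreted semaphorin, had the smallest p of them (0.36, adjusted p = 0.854). GAP43, a growth cone protein, differed by 0.20 (-0.0018 to 0.40) and the serotonin receptor HTR2A by 0.16 (-0.080 to 0.39).

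The right hemisphere, which holds none of the arrays that stood apart, was then examined alone. Limma called 1 of 26383 probe sets there (0.00379%), DIAPH3, with a difference of 0.91 (SE 0.12, adjusted p = 0.0374). FOS differed by 0.68 (SE 0.11, adjusted p = 0.0902). At an unadjusted p below 0.05 (1100 probe sets, 4.17%), 667 were higher (2.53%) and 433 lower (1.64%) in PMd. The immediate early genes had a median of 0.27 on the right, and 11 of 18 had an unadjusted p below 0.05 with a higher PMd level. NEFH differed by 0.39, PVALB by 0.48 and NPAS4 by 0.70 (adjusted p = 0.870, 0.475 and 0.391).

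In the left hemisphere 0 probe sets were called by limma (0%), with 1704 below an unadjusted p of 0.05 (6.46%), 1279 higher (4.85%) and 425 lower (1.61%) in PMd. DIAPH3 differed by 0.86 and FOS by 0.92 (adjusted p = 0.242 for both), and the immediate early genes had a median of 0.42. A direct test of right against left called 0 probe sets (0%), while 2086 had an unadjusted p below 0.05 (7.91%), 971 positive (3.68%) and 1115 negative (4.23%), and the smallest adjusted p was 0.146. The right minus left value was 0.055 for DIAPH3 (95% interval -0.32 to 0.43) and -0.24 for FOS (-0.59 to 0.10). For IER2 it was -0.29 (-0.53 to -0.050, adjusted p = 0.596).

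The hemispheres shared part of the small differences. Across the 26383 probe sets the right and left differences correlated at a Pearson r of 0.129 (probe sets are not independent replicates), and 56.7% had the same sign. Of the 100 probe sets with the smallest p on the right 68 had the same sign on the left, and of the 100 with the smallest p on the left 87 had it on the right. The median absolute difference between a PMd and a PMv array of one hemisphere and animal was 0.085 to 0.237 over the 6 pairs. The same quantity between the right and left arrays of one area was 0.090 to 0.170, and these ranges overlap. The widest PMd to PMv difference, 0.237, was that of the left arrays of animal 1.

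**Figure D5:**
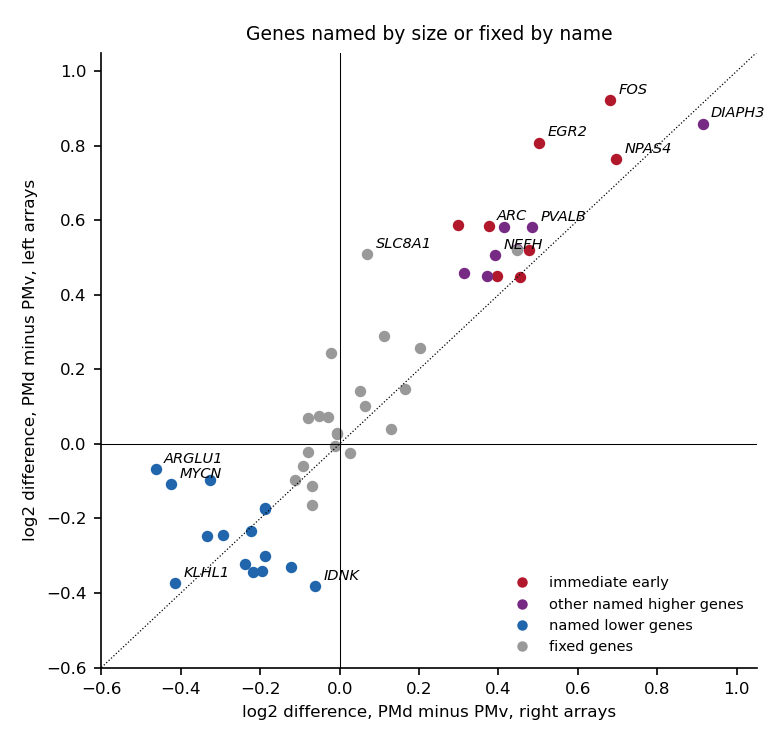
Log2 difference, PMd minus PMv, in left-hemisphere arrays against that in right-hemisphere arrays for the genes named by size or fixed by name. DIAPH3, FOS and the other named higher genes lie above 0 in both hemispheres and the named lower genes below 0 in both. Most genes fixed by name lie near 0, with RFTN2 (0.48 over both hemispheres) and SLC8A1 (0.29) among the exceptions. Some have opposite signs in the hemispheres, such as UGT8 at -0.021 on the right and 0.24 on the left.

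PMd and PMv were the closest of the 6 pairs of areas by number of calls. Against the 2 calls between them, limma called 87 probe sets between M1 and PMd (0.33%), 494 between M1 and PMv (1.87%), 515 between PMd and A46 (1.95%), 324 between PMv and A46 (1.23%) and 3391 between M1 and A46 (12.9%). Without the left PMv arrays of animals 1 and 2 the counts were 343 for M1 and PMd, 691 for M1 and PMv, 1121 for PMd and A46, 691 for PMv and A46, 4549 for M1 and A46, and 2 for PMd and PMv. By size the order differed: the median absolute difference was 0.063 between PMd and PMv and 0.056 between M1 and PMd. The 99th percentile was 0.28 between PMd and PMv, the lowest of the 6, and 0.77 between M1 and A46. These pairs share arrays and one estimate of the spread.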

How the data were processed

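Total RNA from dissected neocortex was labelled with biotin and measured on Affymetrix Rhesus arrays, one array per piece and one colour each, per the labels' protocols. Per the submitters' processing notes, RMA made the deposited values, which are linear intensity values per probe set. No source used here states its version or which arrays formed one normalization set. RMA usually equalises array distributions, which hides a shift of all transcripts together, yet the SD of log2 values here differed between arrays.

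The deposited intensity values were converted to log2 here. Probe sets with a mean below the median of 5.62 were left out, which kept 26383 of 52766, and genes were named from the platform annotation (24956 probe sets with 1 symbol, 361 with several, 27449 with none). The tested probe set with the highest mean stood for a gene, giving 10043 genes. No genome build is named, so no coordinates or sequences are given. Limma (version 3.58.1, R 4.3.3; lmFit, eBayes with an intensity trend, two-sided) was fitted to the 12 animal-by-area means with area and animal as terms (6 residual and 6.98 prior degrees of freedom). It was fitted likewise to right arrays, left arrays and right minus left differences. Benjamini-Hochberg adjusted p-values below 0.05 over all tested probe sets were called. The code was tested on simulated data. Arrays have no read depth, and 3 animals limit the precision.

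Animal numbers from the titles pair the areas, which come from the same 3 animals. After removal of area means, PMd and PMv of one animal correlated at 0.599 to 0.662.

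Genes were named as up to 15 each way that passed, filled up with the smallest p of one sign in 3 animals, up to 4 members of each list by p, genes fixed by name, and those called in right arrays or with PMd and PMv at opposite ends. Members and lists were chosen with earlier results of these data known. Some named genes illustrate list counts and were chosen after their values were seen. No list was tested as a set. Alternatives tried are given in the closing section.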

Additional observations from a re-analysis of the deposited data

Results flagged for a closer look

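Single arrays far from the others of their area were looked for in 51 genes, that is 102 groups of 6 arrays, by Dixon's ratio of gap to range at its 95% critical value. Among 6 independent values a gap this wide arises by chance in about 1 in 20 groups, and 7 were found. The 6 arrays here are 2 hemispheres of 3 animals, and some genes were named for a small p. That rate therefore need not hold for these groups. In NPAS4 the left PMv array of animal 1 was low at 6.01, with the others at 6.44 to 6.62. In IDNK the right PMv array of animal 1 was low at 5.82, against 6.22 to 6.33. In PMd, low values were 7.22 for TBL1X (right, animal 2), 5.66 for MYCN (right, animal 1), 7.78 for RFTN2 (right, animal 3) and 12.97 for MBP (right, animal 3). FOXO6 had a high PMd value of 7.28 (left, animal 3), with the others at 6.86 to 7.01.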

How the results depend on the processing

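The 2 calls between PMd and PMv were few enough that most choices moved their number, while the differences of DIAPH3 (0.82 to 0.96) and FOS (0.67 to 0.92) stayed positive under every alternative run. Limma called 0 probe sets without the replicate block (559 with an unadjusted p below 0.05), 0 with the filter at the 75th percentile (910), which leaves out DIAPH3, 0 with array weights (1466) and 0 in left arrays alone. It called 1, DIAPH3, in right arrays alone, after a second quantile normalization and with each sample's SD of log2 values as a covariate. It called 37 (34 higher, 3 lower) with PMd and PMv only. Leaving out each animal in turn gave 0 to 1398 calls, 0 to 1292 higher and 0 to 106 lower, the most without replicate 3, which leaves the males. No filter, no intensity trend, robust moderation and a floor of 16 kept the count at 2. Alternatives chosen after seeing the data gave 2 calls without the left PMv arrays of animals 1 and 2, 0 when animal 3 was left out as well (2587 with an unadjusted p below 0.05), 0 with the actin 3′ to 5′ gap as a covariate (429), and 2142 (1787 higher, 355 lower) with gene-by-gene array weights. The default array weights stopped before converging, and which of the weighted counts is closer was not settled. The weighted runs are included in the ranges given here. The causes of these shifts were not tested. In right arrays limma called 42 with PMd and PMv only and 0 without the replicate block, with the 75th percentile filter, without the intensity trend or without any 1 animal. In left arrays it called 2 with PMd and PMv only and 0 to 1108 when an animal was left out. The test of right against left gave 0 under all alternatives run. The immediate early genes kept a median of 0.25 to 0.43 and 9 to 14 members with an unadjusted p below 0.05 and a higher PMd level. Among all tested probe sets the number at that level ran from 163 (without animal 2) to 5333 (gene-by-gene array weights). Of the 49 genes named by size or by name that did not pass, 11 changed sign under some setting while not passing. The 3 animals limit what these arrays can resolve.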

Other observations

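Some gene groups not described above were also measured. Of 18 tested synaptic vesicle and release genes 14 (77.8%) were higher in PMd, beside 67.6% of all genes, with a median difference of 0.071 (0.014 without the left PMv arrays of animals 1 and 2). The synaptic vesicle proteins SYT4 (0.18) and SV2A (0.14) had an unadjusted p below 0.05, as did SV2C and VAMP1, while SYT17 was lower, so 22.2% were below it and higher, beside 5.25% of all genes. SYT4 was 0.037 without that pair of arrays. Of 17 neuropeptide and peptide receptor genes 12 had a negative difference and 5 (29.4%) a positive one, beside 67.6% of all genes, with a median of -0.049, and the substance P receptor TACR1 (-0.21) and OPRK1 were lower with an unadjusted p below 0.05 (11.8%, beside 0.707% of all genes). No member of either list passed the test (adjusted p from 0.812 to 0.854 for those named).

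Several genes, chosen after their values were seen for the smallest p in the test of right against left, differed in opposite directions in the hemispheres. HDLBP, an RNA-binding protein of lipoprotein metabolism, was lower in PMd on the right (-0.50) and higher on the left (0.24), a right minus left value of -0.74 (limma adjusted p = 0.146). TMEM33 gave -0.59 on the right and 0.21 on the left, and ZNF184 -0.43 and 0.50 (adjusted p = 0.306 for both). None passed, and the left values include the pair of PMv arrays that stood apart.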
